A study of Mus musculus with 12 samples.

Results

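The potassium channel genes described here are the protein-coding genes of the count files whose GENCODE mouse name starts with Kcn, which covers the subunits that form the channel pore and most of the auxiliary subunits that bind them. Of the 55416 genes in the files, 99 carried such a name, of which 94 were protein-coding and 5 were long noncoding RNAs that were set aside. Each of 12 bulk RNA-seq libraries came from a pool of sorted sensory cells, 6 of them inner hair cells (IHCs) and 6 outer hair cells (OHCs), taken from the organ of Corti of mice on the day of birth (P0), and all were labelled with the genotype WT. IHCs were sorted on GFP from the Atoh1-GFP allele alone, and OHCs on GFP together with tdTomato from the R26-TdTomato reporter, which was switched on by Insm1-GFP-Cre. By the methods, these alleles came from R26 tdTomato homozygous males crossed with females that carried the Insm1 GFP/Cre and Atoh1-GFP knock-in alleles, so the pups were wild type apart from the reporter and driver alleles. The OHC gate thus rested on a Cre driven by the Insm1 promoter, and by the paper the cells of several animals were pooled. Nothing in the sources used here ties an IHC pool to an OHC pool of the same number, and p-values measure the spread between pools.

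Potassium channels set the resting potential of hair cells, shape their receptor potential and carry away the potassium that enters through the mechanotransducer channels. Pore-forming subunits include voltage-gated families (Kv1 to Kv4, Kv7 and the ether-a-go-go family), inward rectifiers, tandem-pore leak channels and channels gated by calcium, while modifier subunits form no channel of their own but change those formed by the Kv2 family. Immature hair cells are known to carry delayed rectifier and inward rectifier currents and a calcium-gated SK current beneath cholinergic efferent synapses, and the rapid BK current of IHCs is known to become prominent around the onset of hearing.

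The promoter windows of RefSeq on GRCm38.p6, each running from 250 bases before to 50 bases after an annotated start, held 68 of the 94 Kcn genes and 6 of the 9 genes that passed the test described below. The windows of Kcna10, Kcnj13 and Kcnc1 are shown because these genes had the highest level in IHCs, the largest log2 fold change towards IHCs and the only called change towards OHCs. They are read 5′ to 3′ on the strand of the gene, at chr3:107182893-107183192 (plus strand), chr1:87394680-87394979 (minus strand) and chr7:46396218-46396517 (plus strand). Capitals mark the E-box letters CANNTG, with CAGCTG as one form of it, the TATA-box letters TATAAA and the T-box letters GGTGTGA, each searched on both strands.
Kcna10: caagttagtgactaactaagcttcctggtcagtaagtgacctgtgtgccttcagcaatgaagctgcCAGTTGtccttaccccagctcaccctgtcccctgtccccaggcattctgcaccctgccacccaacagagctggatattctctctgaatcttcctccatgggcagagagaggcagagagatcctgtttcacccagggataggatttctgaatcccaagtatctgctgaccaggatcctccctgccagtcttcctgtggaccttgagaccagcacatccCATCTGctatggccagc
Kcnj13: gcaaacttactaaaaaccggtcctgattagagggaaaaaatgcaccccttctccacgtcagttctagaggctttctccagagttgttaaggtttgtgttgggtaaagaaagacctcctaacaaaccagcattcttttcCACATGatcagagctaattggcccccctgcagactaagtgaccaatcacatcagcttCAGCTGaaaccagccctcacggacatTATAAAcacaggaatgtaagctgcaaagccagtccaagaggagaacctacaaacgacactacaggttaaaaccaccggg
Kcnc1: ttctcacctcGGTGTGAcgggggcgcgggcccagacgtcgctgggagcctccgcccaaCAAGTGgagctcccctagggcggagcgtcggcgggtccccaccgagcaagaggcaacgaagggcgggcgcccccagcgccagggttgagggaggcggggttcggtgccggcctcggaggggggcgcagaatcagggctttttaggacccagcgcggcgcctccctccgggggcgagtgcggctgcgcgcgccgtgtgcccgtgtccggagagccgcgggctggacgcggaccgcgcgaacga
The Kcnj13 window held E-box letters, once in the form CAGCTG, and the TATA-box letters, that of Kcna10 held E-box letters, and that of Kcnc1 held E-box and T-box letters. Of all 32851 windows of this length, 72.3% held CANNTG, 16.3% CAGCTG, 13.6% TATAAA and 3.98% GGTGTGA. Among the 93 windows of Kcn genes these shares were 73.1%, 24.7%, 5.38% and 5.38%. Which start the hair cells used was not analysed here, and a match describes the letters of the window only.

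Between 31490204 and 44017309 counts fell on genes in an IHC library and between 29564827 and 39121988 in an OHC library, of which ribosomal RNA took 21.5% to 56.9% and 23.4% to 36.4%. The highest share was that of IHC replicate 1, which also had the lowest TMM factor, the scaling that edgeR applies to library sizes, at 0.486. This library held the highest IHC value in 9 of the 34 tested Kcn genes and IHC replicate 3 in 8, so calls that changed without IHC replicate 1 are given below. Levels between libraries are compared as CPM, in which each library was scaled by its TMM-normalized size. Levels between genes are compared as RPKM, which is CPM per kilobase of the union of a gene's exons. That union takes in every annotated exon, used by hair cells or not, so ratios between genes depend on the annotation. The floor of detection was taken here as 3 counts. These corresponded to 0.0733 to 0.196 CPM in IHC libraries and 0.0647 to 0.1001 CPM in OHC libraries, which covers counting error only. The reads carry no molecular identifiers.

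The labels of the pools were compared with marker genes. The 8 hair cell markers summed to 6366 to 9141 CPM in IHC libraries and 4986 to 6430 CPM in OHC libraries, with Otof and Gfi1 called IHC-enriched and the other 6 not called. The summed level of the 4 IHC markers (Tbx2, Fgf8, Slc17a8 and Otof) was 1834 to 4284 CPM in IHC libraries and 360 to 687 CPM in OHC libraries, and all 4 were called IHC-enriched. Most of this sum was Otof, which is also among the hair cell markers, at 1417 to 3699 CPM and 354 to 664 CPM. In OHC libraries Tbx2 was 3.84 to 13.0 CPM, Fgf8 0.200 to 4.98 CPM and Slc17a8 1.40 to 35.5 CPM. The summed level of the 4 OHC markers was 2.16 to 23.5 CPM in IHC libraries and 105 to 188 CPM in OHC libraries, and 3 of them (Insm1, Neurod6 and Bcl11b) were called OHC-enriched. The fourth, Ikzf2, was 1.31 to 22.3 CPM in IHC libraries, against 0.234 to 23.5 CPM in OHC libraries. Markers of other cells differed between the pools as well. The 8 supporting cell markers summed to 263 to 677 CPM in IHC libraries and 120 to 259 CPM in OHC libraries, and 2 of them, Sox2 and Gjb2, were called IHC-enriched. Lfng, Slc1a3, Gjb6 and Sparcl1 lay on the IHC side without a call. Fgfr3 and Hes5 lay on the OHC side, also without a call. Fgfr3 was 1.44 to 73.3 CPM in IHC libraries and 67.8 to 77.8 CPM in OHC libraries. The 6 endothelial markers summed to 0.277 to 4.98 CPM in IHC libraries and 14.7 to 169 CPM in OHC libraries, with 5 called OHC-enriched and Cldn5 at 0 counts in every IHC library.

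For mesenchyme the sum over 7 markers was 42.8 to 59.3 CPM in IHC libraries and 5.07 to 27.3 CPM in OHC libraries, with none called, and for glia the sum over 6 markers was 23.1 to 132 CPM and 13.8 to 38.6 CPM, with none called. The 6 neuronal markers summed to 738 to 1365 CPM and 211 to 423 CPM, almost all of it Nefm and Snap25, which were called IHC-enriched, while Prph had at most 2 counts in any library. Pericyte markers (5.76 to 26.4 CPM in IHC libraries and 6.64 to 22.1 CPM in OHC libraries) and strial marginal cell markers (34.5 to 164 CPM and 45.0 to 75.2 CPM) had no called gene, and Higd1b and Bsnd had no count. Macrophage markers reached at most 19.6 CPM and 5.47 CPM, with Cx3cr1, C1qa and Fcer1g at 0, melanocyte markers at most 2.74 CPM and 0.868 CPM, with Tyr and Mlana at 0, and erythroid markers at most 0.0613 CPM and 3.20 CPM, with Hbb-bs and Hba-a2 at 0. The part of these other cells in the Kcn differences below was not tested. In bulk pools, fewer cells of a type and less RNA per cell cannot be told apart.

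Of the 94 Kcn genes, 34 passed the filter on low counts and were tested. Of these, 9 were called at an adjusted p-value under 0.05 (edgeR's quasi-likelihood test, adjusted by the Benjamini-Hochberg method over all 13269 genes tested), against 6.26% of all genes tested. The IHC-enriched genes numbered 8, with Kcnip3, Kcna10, Kcnb2, Kcnj13, Kcnab2 and Kcnma1 among them, and these 8 were 23.5% of the tested Kcn genes against 3.81% of all genes tested. Kcnc1 was OHC-enriched, against 2.44% of all genes tested. In 5 of the 9 genes, or 14.7% of those tested, every IHC library lay above every OHC library (Kcnip3, Kcna10, Kcnb2, Kcnj13 and Kcnab2), as in 2.37% of all genes tested, and no Kcn gene was separated in the opposite direction, as 2.22% of all genes tested were. A gene could pass the filter on the libraries of 1 cell type alone, so these shares describe the tested genes and not all 94. At an unadjusted p under 0.05 there were 16 Kcn genes. Without IHC replicate 1 the test called 6 Kcn genes IHC-enriched and 2 OHC-enriched, the latter being Kcnf1 and Kcnip2 in place of Kcnc1.

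The estimates of the tested Kcn genes lay mostly on the IHC side. The log2 fold change of OHCs against IHCs, in which a negative value means a higher level in IHCs, was negative for 25 and positive for 9 of the 34 genes. Its median was -0.66, beside -0.04 over all genes tested, of which 6871 were negative and 6398 positive. The Kcn median was -0.41 without IHC replicate 1 and also without IHC replicate 6, and between -0.64 and -0.76 without any other single library. On the 2 other tests the split was similar for IHCs and wider for OHCs. edgeR's exact test called 8 Kcn genes IHC-enriched and 2 OHC-enriched (5.66% and 3.91% of all genes), and DESeq2 called 10 and 4 (7.94% and 9.43% of its 16869 genes with an adjusted p). Both held the 9 genes called by the main test. The gene added by both was Kcnf1 in OHCs, and DESeq2 alone added Kcnd3 and Kcnn3 in IHCs and Kcnab3 and Kcnt1 in OHCs, all 4 of them below the filter of the main test, with Kcnn3 and Kcnt1 named after their values were seen.

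**Figure D1:**
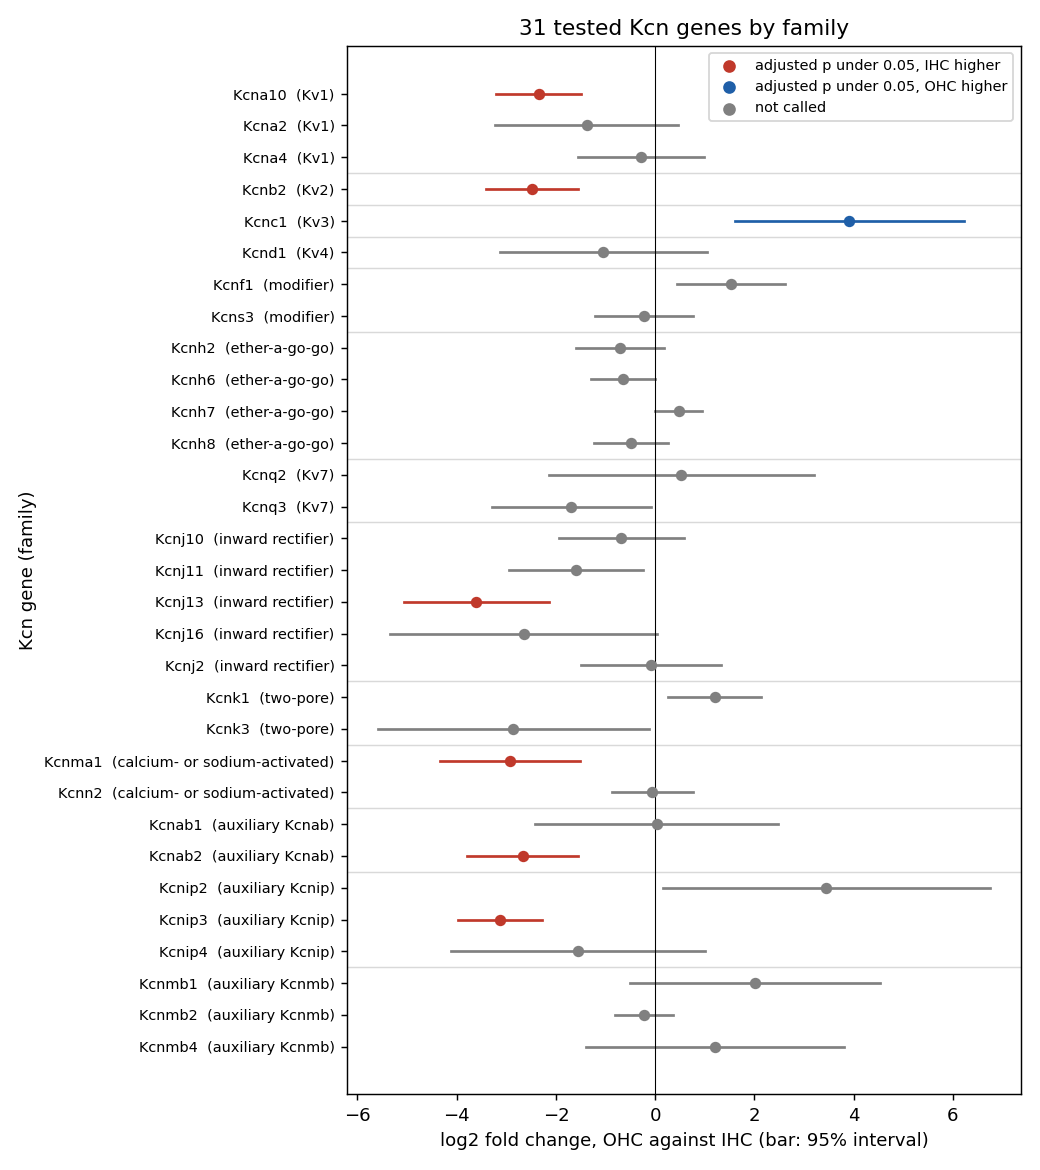
Log2 fold change of OHCs against IHCs (horizontal axis) with its 95% interval for 31 of the 34 tested Kcn genes, ordered by family, with red for the 6 drawn that were called IHC-enriched, blue for the 1 called OHC-enriched and grey for the other 24. Intervals of called genes lie clear of 0, and 22 of the points lie on the IHC side.

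The summed level of all 94 Kcn genes was higher in every IHC library than in any OHC library. It was 351 ± 92.5 RPKM in IHCs (SD, n = 6, range 261 to 461) and 188 ± 31.6 RPKM in OHCs (n = 6, range 148 to 226). Most of this gap came from a few genes. Without Kcna10, Kcnip3 and Kcnj13 the sum was 149 to 332 RPKM in IHCs (mean 202) and 135 to 187 RPKM in OHCs (mean 163), and the ranges overlapped. With the counts outside ribosomal RNA as library size, the sum over all 94 genes was 484 ± 94.3 RPKM and 289 ± 34.5 RPKM and the ranges again did not overlap. A mean of at least 1 RPKM was reached by 24 genes in IHCs and 18 in OHCs, the latter all among the former, and 70 genes reached it in neither cell type.

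**Figure D2:**
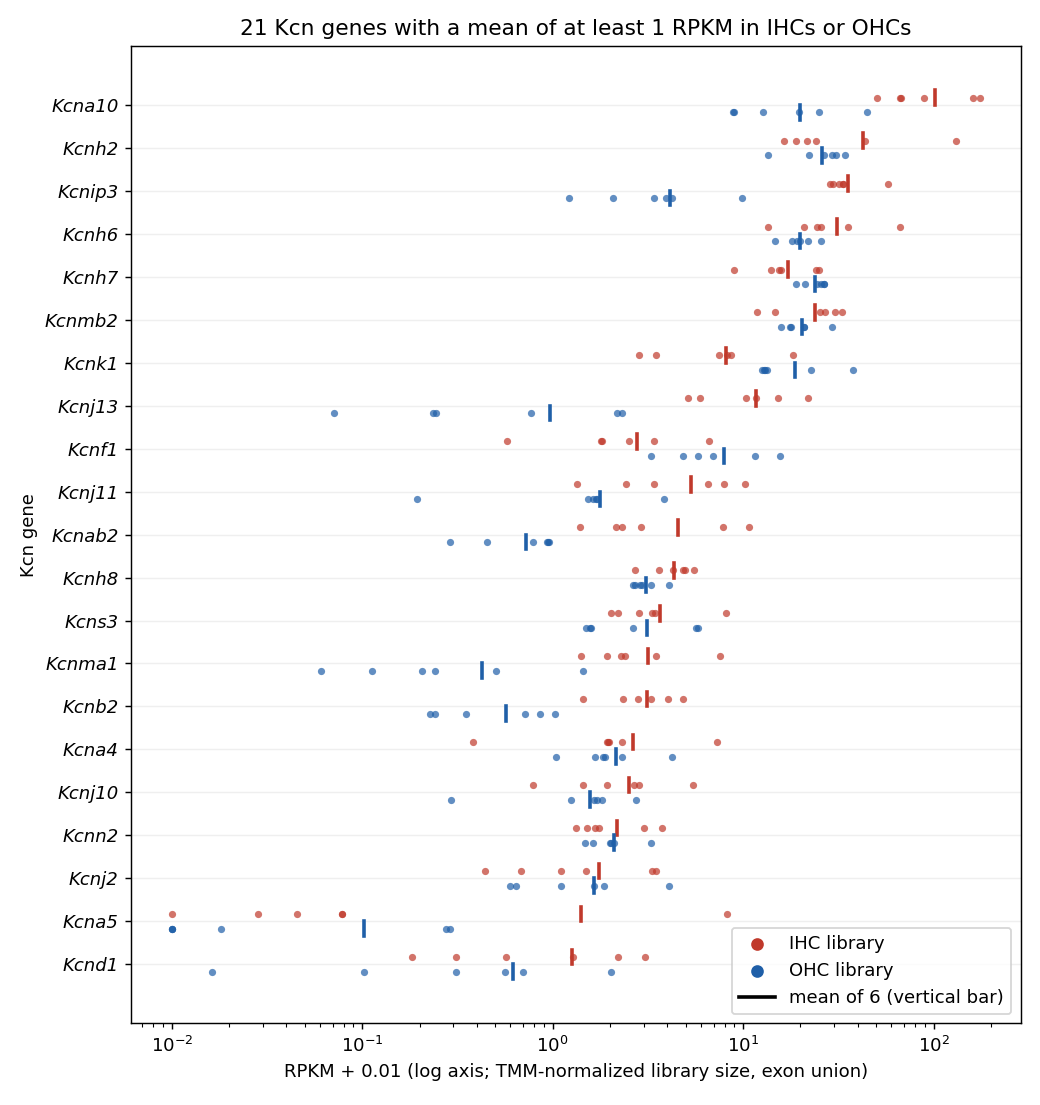
RPKM plus 0.01 (horizontal axis, logarithmic) of 21 of the 24 Kcn genes with a mean of at least 1 RPKM in IHCs or OHCs, with 1 point for each library (red IHC, blue OHC) and a vertical bar for the mean of 6. Kcna10, Kcnh2 and Kcnip3 lead in IHCs, and the red and blue points of Kcnip3 and Kcnj13 are far apart while those of Kcnn2 lie over each other.

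The order of the genes differed between the cell types. In IHCs the mean level per length was 102 ± 53.3 RPKM for Kcna10, 42.7 ± 44.4 RPKM for Kcnh2, 35.7 ± 10.9 RPKM for Kcnip3, 31.1 ± 18.9 RPKM for Kcnh6 and 23.8 ± 8.61 RPKM for Kcnmb2 (SD, n = 6). In OHCs it was 26.1 ± 7.39 RPKM for Kcnh2, 23.9 ± 3.11 RPKM for Kcnh7, 20.4 ± 4.76 RPKM for Kcnmb2, 20.0 ± 13.7 RPKM for Kcna10 and 19.9 ± 3.65 RPKM for Kcnh6. The means of these 5 genes in OHCs lay closer together than the SD of Kcna10 there. The 10 highest genes held 86.1% of the summed level in IHCs and 85.9% in OHCs, and 9 of them were shared. Kcnj13 was in the first 10 of IHCs only and Kcnf1 in those of OHCs only.

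**Figure D3:**
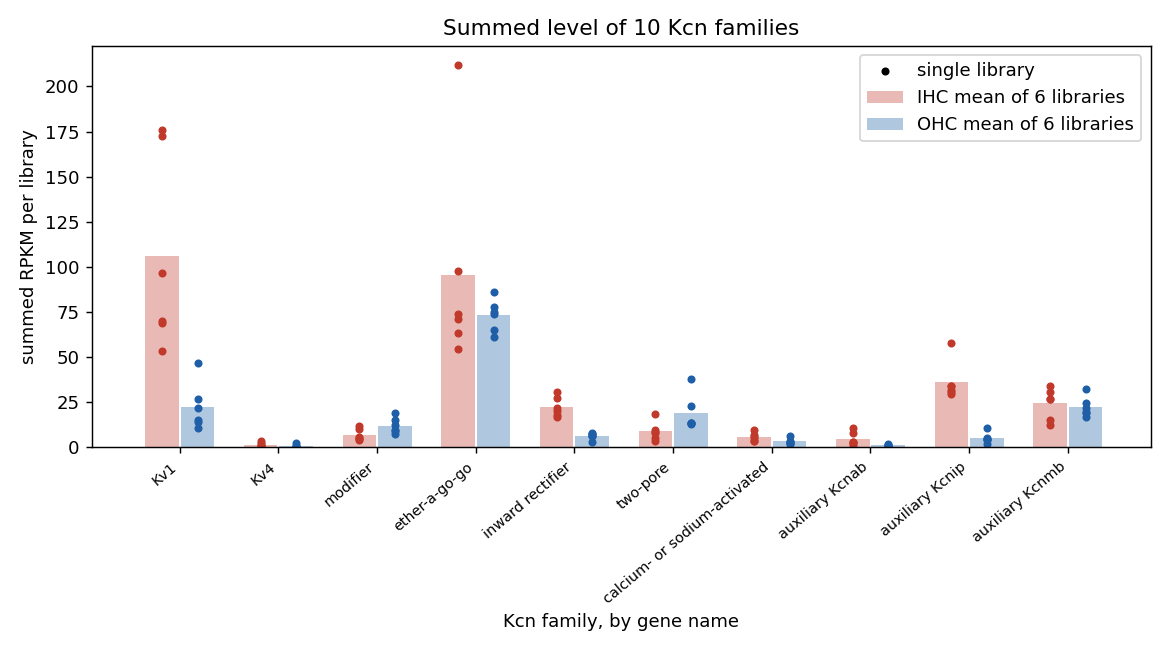
Summed RPKM of the Kcn genes of 10 families (vertical axis) in every library, as bars for the mean of 6 libraries and points for single libraries, red for IHCs and blue for OHCs. The Kv1 and Kcnip sums were higher in all 6 IHC libraries than in any OHC library, while ether-a-go-go sums overlapped and 1 IHC library, replicate 1, stood at 212 RPKM.

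Of the Kv1 family, whose members form voltage-gated channels of the Shaker type, the sum was 53.2 to 176 RPKM in IHCs and 10.6 to 46.8 RPKM in OHCs, nearly all of it Kcna10. Kcna10 (chr3:107090372-107103037 on GRCm39, plus strand), a hair cell Kv1 subunit with a cyclic nucleotide binding domain, was 109 to 380 CPM in IHC libraries (median 170) and 19.1 to 97.2 CPM in OHC libraries (median 35.01). Every IHC library was above every OHC library, the closest being IHC replicate 4 and OHC replicate 4. Kcna10 was 5.09-fold higher in IHCs (log2 fold change -2.35 ± 0.41, SE; edgeR adjusted p = 0.00133). Kcna4, which was not called, had 1.94 to 37.5 CPM in IHC libraries against 5.37 to 21.9 CPM in OHC libraries. Kcna5, named like Kcna4 after its values were seen, had 767 counts in IHC replicate 5 and at most 37 in any other library. It reached a mean of 1 RPKM in IHCs through that library alone.

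In the Kv2 family, which carries slow delayed rectifier currents in many neurons, Kcnb2 (chr1:15356816-15793974) was IHC-enriched. Kcnb2 was 30.7 to 104 CPM in IHC libraries (median 65.1) and 4.64 to 21.9 CPM in OHC libraries (median 11.2), without overlap, with a log2 fold change of -2.48 ± 0.44 (adjusted p = 0.00156 by edgeR).

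Modifier subunits, which assemble with Kv2 subunits, were led by Kcnf1 and Kcns3. Kcnf1 was 2.70 to 31.7 CPM in IHC libraries (median 10.3) and 15.8 to 74.4 CPM in OHC libraries (median 30.4). The groups overlapped at IHC replicates 1 and 4, and the log2 fold change of 1.53 ± 0.52 did not pass the test (edgeR adjusted p = 0.0887). Without IHC replicate 1 it was 1.98 and passed (edgeR adjusted p = 0.0214). Kcns3 was 15.3 to 61.4 CPM and 11.2 to 44.0 CPM, with an interval of its log2 fold change from -1.21 to 0.76. Among the partner genes, Amigo1, an adhesion molecule that binds Kv2 channels, was OHC-enriched, with 1.94 to 16.7 CPM in IHC libraries and 18.4 to 46.3 CPM in OHC libraries (log2 fold change 1.74 ± 0.51, edgeR adjusted p = 0.0469). Its groups did not overlap, but the call was kept in only 1 of the 12 fits that left out 1 library, with an adjusted p of 0.0964 without OHC replicate 5.

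In the Kv3 family, known for fast-gating channels in neurons that fire at high rates, Kcnc1 was OHC-enriched at a low level and on few libraries. Kcnc1 (chr7:46045674-46106392) was 0.0919 to 1.78 CPM in IHC libraries (median 0.518) and 0.380 to 32.9 CPM in OHC libraries (median 5.44). Only OHC replicates 2, 4 and 5 were clearly above the IHC libraries, and OHC replicates 3 and 6 lay within their range. The log2 fold change was 3.91 ± 1.104 (SE, edgeR adjusted p = 0.0386). Without OHC replicate 5 the log2 fold change was 2.85 with an adjusted p of 0.143, and without IHC replicate 3 it was 4.61 with an adjusted p of 0.0284. The call was kept in 4 of the 12 fits that left out 1 library.

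Of the Kv4 family, which carries rapidly inactivating currents, only Kcnd1, named after its values were seen, was tested. Kcnd1 reached 16.1 CPM in an IHC library and 10.7 CPM in an OHC library (edgeR adjusted p = 0.582). Kcnd2 had at most 7 counts in any library and Kcnd3 at most 60 in IHCs and 4 in OHCs.

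**Figure D4:**
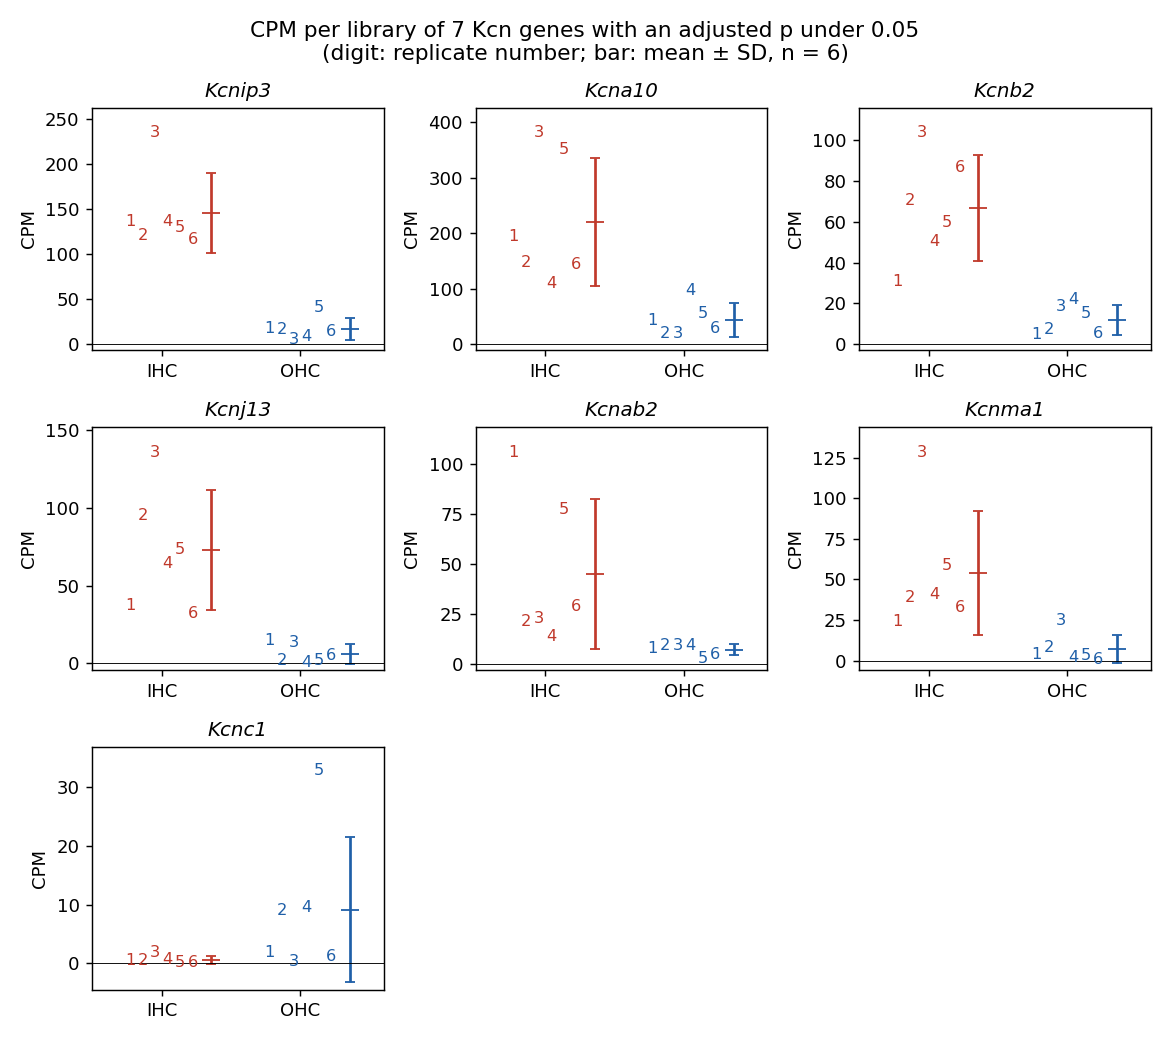
CPM (vertical axes, linear) of 7 of the 9 called Kcn genes in each library, printed as the replicate number at the height of its value (red IHC, blue OHC), with the mean ± SD of 6 beside it. Kcnip3, Kcna10, Kcnb2, Kcnj13 and Kcnab2 show no overlap between the cell types, whereas Kcnc1 rests on OHC replicates 2, 4 and 5.

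Of the calcium-gated channels that were tested, Kcnma1 was called and Kcnn2 was not. Kcnma1 (chr14:23339499-24064559), the pore-forming subunit of BK channels, was 23.9 to 128 CPM in IHC libraries (median 39.7) and 0.866 to 24.4 CPM in OHC libraries (median 3.63). The groups met at a single point, where OHC replicate 3 lay just above IHC replicate 1, and the other OHC libraries were at most 8.35 CPM. Kcnma1 was IHC-enriched with a log2 fold change of -2.92 ± 0.67, or 7.58-fold (edgeR adjusted p = 0.0123). Its call was kept in all 12 fits that left out 1 library, with adjusted p from 0.00101 to 0.0390. Without OHC replicate 3 the log2 fold change was -3.89, or 14.8-fold. Kcnn2, the SK channel of the efferent synapse, was 14.9 to 42.1 CPM in IHC libraries (median 19.2) and 16.7 to 36.9 CPM in OHC libraries (median 22.6). The groups overlapped almost wholly, and the log2 fold change of -0.06 had an interval from -0.87 to 0.75 (edgeR adjusted p = 0.950). The nicotinic receptor genes of that synapse, Chrna9 and Chrna10, were not called either (edgeR adjusted p = 0.220 and 0.899), at mean levels of 45.0 RPKM and 29.5 RPKM in IHCs and 30.3 RPKM and 31.3 RPKM in OHCs. Kcnn2 was at most 0.136 times the level of Chrna9 per length in any IHC library and 0.0968 times in any OHC library.

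BK channels bind beta subunits encoded by Kcnmb genes and gamma subunits encoded by Lrrc genes. Kcnmb2, which makes BK currents inactivate, was 41.5 to 116 CPM in IHC libraries (median 91.7) and 55.3 to 102 CPM in OHC libraries (median 67.8). It was not called, with a log2 fold change of -0.22 and an interval from -0.80 to 0.36 (edgeR adjusted p = 0.686). Its level per length exceeded that of Kcnma1 in 6 of 6 libraries of each cell type, by a median ratio of 10.1 in IHCs (1.95 to 14.0) and of 87.3 in OHCs (12.2 to 411). Kcnmb1 reached at most 3.10 CPM in an IHC library, against 6.54 CPM in an OHC library, and Kcnmb4 at most 5.73 CPM and 19.6 CPM, neither of them called. Of the gamma subunits, Lrrc26 was 0.272 to 56.4 CPM in IHC libraries and 0 to 2.97 CPM in OHC libraries, with a log2 fold change of -4.29 ± 1.35 that did not pass the test (edgeR adjusted p = 0.0624) but passed it without IHC replicate 4, IHC replicate 6 or OHC replicate 4 (adjusted p from 0.0408 to 0.0417).

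Inward rectifiers, which hold the membrane near the potassium equilibrium potential, summed to 16.9 to 30.6 RPKM in IHCs and 3.02 to 7.94 RPKM in OHCs, without overlap. Most of this gap was Kcnj13, with a mean of 11.7 RPKM in IHCs and 0.961 RPKM in OHCs. The means of Kcnj11, which was not called, were 5.31 and 1.76 RPKM, and those of Kcnj2 were 1.74 and 1.65 RPKM. Kcnj13 (chr1:87309135-87322456, minus strand), a weakly rectifying member known from transporting epithelia, was 31.8 to 136 CPM in IHC libraries (median 68.5) and 0.378 to 14.3 CPM in OHC libraries (median 3.11). OHC replicates 1 and 3 were the highest of their group, and both were below every IHC library. The log2 fold change of -3.60 ± 0.70, or 12.2-fold, was the largest of the IHC-enriched Kcn genes (edgeR adjusted p = 0.00323). Kcnj13 overlaps Gigyf2 on the opposite strand and shares 10.8% of its exonic bases with it. By the methods, tools ran at their defaults where nothing else was stated, and no strand setting is named for the counting. Reads of the shared bases cannot be assigned if strand was ignored.

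Other inward rectifiers were not called. Kcnj11, the pore of ATP-sensitive channels and named after its values were seen, was 4.91 to 37.7 CPM in IHC libraries and 0.678 to 14.2 CPM in OHC libraries, with a log2 fold change of -1.59 (edgeR adjusted p = 0.154). Its regulatory partner Abcc8, the sulfonylurea receptor, was 8.27 to 57.5 CPM and 5.13 to 11.7 CPM and was called IHC-enriched (log2 fold change -1.77, edgeR adjusted p = 0.0430), but the call was kept in only 4 of the 12 fits that left out 1 library. Without IHC replicate 1 the log2 fold change of Abcc8 was -1.40 (edgeR adjusted p = 0.114), and the other lost calls had adjusted p from 0.0595 to 0.0918. Kcnj2, a strong rectifier, was 2.35 to 19.1 CPM and 3.23 to 22.3 CPM, and Kcnj10, known from glia, supporting cells and the stria vascularis, was 4.21 to 29.5 CPM and 1.52 to 14.8 CPM. Kcnj16, which assembles with Kcnj10, had a median of 2.91 CPM in IHC libraries, against 0.0458 CPM in OHC libraries, with an interval of its log2 fold change from -5.35 to 0.05, and passed the test without OHC replicate 3 (edgeR adjusted p = 0.0282). Kcnj8 had at most 3 counts in any library.

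The ether-a-go-go family was among the most highly expressed in both cell types, and none of its 4 tested members was called. Together Kcnh2, Kcnh6 and Kcnh7, the Erg channels, summed to 50.6 to 207 RPKM in IHCs and 57.7 to 83.0 RPKM in OHCs, that is, a median of 68.7 and 70.9 RPKM. Kcnh2 was 85.0 to 680 CPM in IHC libraries (median 119) and 70.1 to 177 CPM in OHC libraries (median 145). The highest value was that of IHC replicate 1, and the next IHC library stood at 226 CPM. Kcnh6 was 62.1 to 308 CPM and 67.9 to 118 CPM, again highest in IHC replicate 1. Kcnh7 had its lowest IHC value in that library, at 138 to 388 CPM, against 295 to 413 CPM in OHC libraries (log2 fold change 0.47, edgeR adjusted p = 0.230). Kcnh7 shares 18.6% of its exonic bases with Gca on the opposite strand.

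Of the Kv7 family, Kcnq1 had at most 8 counts in any library and Kcnq5 at most 4. Kcne1, which forms the potassium-secreting channel of strial marginal cells together with Kcnq1, had at most 1 count. Kcnk1, a tandem-pore leak channel, was 7.13 to 46.3 CPM in IHC libraries (median 19.8) and 31.8 to 95.5 CPM in OHC libraries (median 33.3). Only IHC replicate 2 reached into the OHC range, and the log2 fold change of 1.20 ± 0.45 did not pass the test (edgeR adjusted p = 0.124). Without that library it was 1.61 and passed (edgeR adjusted p = 0.0340). Kcnk2 had at most 3 counts in any library.

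Auxiliary subunits without a pore summed to 56.7 to 75.4 RPKM in IHCs and 21.4 to 38.6 RPKM in OHCs. Most of this gap was Kcnip3, with a mean of 35.7 RPKM in IHCs and 4.11 RPKM in OHCs. The Kcnmb sums overlapped, at 12.1 to 34.1 RPKM in IHCs and 16.5 to 32.4 RPKM in OHCs. Of the 8 auxiliary genes tested, 2 were called, both IHC-enriched. Kcnip3 (chr2:127298418-127364014), a calcium-binding protein that attaches to Kv4 channels and is also known as a transcriptional repressor, was 116 to 234 CPM in IHC libraries (median 132) and 4.91 to 40.1 CPM in OHC libraries (median 14.9). All IHC libraries but replicate 3 lay within 116 to 136 CPM, and no OHC library exceeded 40.1 CPM. Kcnip3 was thus 8.69-fold higher in IHCs, with a log2 fold change of -3.12 ± 0.41 (edgeR adjusted p = 7.01e-05), the smallest adjusted p among Kcn genes. The Kv4 genes were low beside it, with Kcnip3 above Kcnd1 per length in 6 of 6 libraries of each cell type, by a median ratio of 39.6 in IHCs and 9.60 in OHCs. Kcnip2, named after its values were seen, went the other way, with 0 to 1.504 CPM in IHC libraries and 0.0915 to 10.9 CPM in OHC libraries, and passed the test in none of the fits but that without IHC replicate 1.

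Kcnab2 (chr4:152474250-152562651), a cytoplasmic beta subunit of Kv1 channels, was 13.6 to 106 CPM in IHC libraries (median 25.6) and 2.74 to 9.30 CPM in OHC libraries (median 8.40). The groups did not overlap, IHC replicates 1 and 5 being the highest. The log2 fold change was -2.66 ± 0.54 (edgeR adjusted p = 0.00436), and without IHC replicate 1 it was -2.22 with an adjusted p of 0.0121. Kcnab1 reached at most 7.33 CPM and 4.73 CPM, and Kcnab3 had no count in any IHC library and at most 49 counts in an OHC library.

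The remaining 60 Kcn genes did not pass the filter. No count was found for 5 of them (Kcne3, Kcne4, Kcnk18, Kcnk4 and Kcnk7), 18 had at most 3 counts in any library, and 30 had a highest count of 4 to 99. The other 7 (Kcna5, Kcng1, Kcnj3, Kcnk9, Kcnmb3, Kcnu1 and Kcnv1, named like the 5 without a count after their values were seen) exceeded 100 counts in some library but not in enough of them. For genes at or under 3 counts a difference was not detectable at this depth. By family, all 5 Kcne genes, most of the tandem-pore genes (12 of 14) and most inward rectifier genes (10 of 15) were untested.

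Genes without a Kcn name whose products act with or beside potassium channels were counted from a list of 31, of which 27 were tested. Besides Abcc8 and Amigo1, 2 genes were called, so that 3 of the 27 were IHC-enriched and 1 was OHC-enriched, beside 3.81% and 2.44% of all genes tested. The other 23 were not called, and the median log2 fold change was 0.04. Hcn4, a hyperpolarization-activated cation channel, was 16.7 to 42.1 CPM in IHC libraries (median 26.2) and 0.819 to 7.95 CPM in OHC libraries (median 3.18). Its groups did not overlap, and the log2 fold change was -2.97 ± 0.57 (edgeR adjusted p = 0.00311), called in all 12 fits that left out 1 library. Atp1b1, a subunit of the sodium-potassium pump, was 512 to 875 CPM and 325 to 542 CPM, with a log2 fold change of -0.67 ± 0.19 (edgeR adjusted p = 0.0370), called in 4 of those 12 fits. Cacna1d, the main calcium channel of IHCs, was 307 to 425 CPM and 240 to 327 CPM and was not called (log2 fold change -0.46, edgeR adjusted p = 0.121).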

How the data were processed

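The deposited values are whole-number read counts for each gene, not normalized. By the labels, ribosomal RNA was depleted and random-primed cDNA was amplified and sequenced in pairs. Per the submitters' processing notes, Trimmomatic, STAR and HTSeq were used on GRCm39, and by the methods STAR ran in a pair of passes. The versions are not given in the sources used here. No strand setting is named for the counting, and by the methods tools ran at their defaults where nothing else was stated. Summary lines of HTSeq, which name no gene, were left out, and counts on genes made up 53.9% to 75.8% of all lines per library. Amplification before sequencing means that counts include copies of the same molecule.

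Genes were filtered in edgeR 4.0.16 under R 4.3.3 (filterByExpr on the cell types, with minima of 10 counts and of 15 in total) and compared after TMM scaling (quasi-likelihood F-test, adjusted p under 0.05 over all genes tested), with DESeq2 1.42.0 as an alternative, and tables were made with Python 3.11.15 and pandas 2.3.3. The fit was tested on counts simulated with the spread that edgeR estimated from these libraries, with 200 genes changed. No outlying library was put into the simulated counts, so that test does not bear on calls that rest on 1 library. GENCODE vM39 (GRCm39) gave names, positions, exon unions and overlaps and names 98.8% of the identifiers and 99.97% of the counts, and promoter windows are those of RefSeq on GRCm38.p6, with no conversion between builds. SE is the log2 fold change over the square root of F. Genes named in the text are every called or non-overlapping Kcn gene, the 10 highest per cell type, Kcnn2, Kcnma1, Kcnj13, a list of known hair cell and cochlear channel genes, and partner genes that were called or are paired with a named Kcn gene; others are marked as named after their values were seen. Some genes under this rule are not reported here, and the counts include them. Members, lists and tests were chosen with earlier results of these data known. Alternatives were the exact test, DESeq2, RLE and upper-quartile normalization, no filter, at least 10 counts in every library, ribosomal RNA left out, a replicate block, and each library left out in turn.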

Additional observations from a re-analysis of the deposited data

Results flagged for a closer look

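In 11 Kcn genes, the 9 called and 2 others including Kcnn2, the highest and lowest library of each cell type were compared with the other 5 by Dixon's criterion. Chance meets it in about 1 of 20 groups if values are normally distributed. It was applied to CPM on a linear scale, whose distribution was not checked, so that rate need not hold here. Of 22 groups, 7 met the criterion, each at the highest library. Kcnip3 stood at 234 CPM in IHC replicate 3 (next 136 CPM) and at 40.1 CPM in OHC replicate 5 (next 17.1 CPM). Kcnma1 stood at 128 CPM in IHC replicate 3 (next 58.7 CPM) and at 24.4 CPM in OHC replicate 3 (next 8.35 CPM). Kcnc1 stood at 1.78 CPM in IHC replicate 3 (next 0.605 CPM) and at 32.9 CPM in OHC replicate 5 (next 9.57 CPM). Kcnn2 stood at 36.9 CPM in OHC replicate 4 (next 23.7 CPM). IHC replicate 3 thus appears in 3 of the 7 and OHC replicate 5 in 2. The calls of Kcnip3 and Kcnma1 were kept without each of these libraries, while that of Kcnc1 was not kept without OHC replicate 5.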

How the results depend on the processing

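Kcnip3, Kcna10, Kcnb2, Kcnj13, Kcnab2 and Kcnma1 kept their call and direction in all 8 alternatives and all 12 fits without 1 library. Kcnc1 lost it in most of the latter, and depth limits the genes below the filter. The count of IHC-enriched Kcn genes was 8, with 10 by DESeq2, 6 with upper-quartile normalization and 6 to 8 without 1 library. That of OHC-enriched Kcn genes was 1, with 4 by DESeq2 and 2 by the exact test. It was 0 with at least 10 counts in every library (Kcnc1 then being untested) and 0 to 2 without 1 library. IHC-enriched partner genes, 3 in all, were 5 by DESeq2, 1 with upper-quartile normalization and 1 to 3 without 1 library, and OHC-enriched ones, 1 in all, were 3 by DESeq2, 2 by the exact test and 0 to 1 without 1 library. Over all genes, 506 were IHC-enriched and 324 OHC-enriched, against 1339 and 1590 by DESeq2 and 893 and 918 with no filter, and the exact test called 519 OHC-enriched. The median log2 fold change was -0.04 over the 13269 genes of the main test. Over 27488 genes it was 0.12 by DESeq2 and 0.11 by edgeR with no filter, so these medians cover different sets of genes. Under other lengths, library sizes or level limits, 17 to 26 Kcn genes in IHCs and 14 to 21 in OHCs reached the level limit. Kcnn2 turned to the OHC side with a log2 fold change of 0.01 to 0.17 in 4 of the 12 fits without 1 library (range -0.23 to 0.17). The cause of these changes was not tested. Same-numbered libraries did not deviate together (r from -0.03 to 0.02). Such values cannot tell whether same-numbered pools shared animals, so pairing remains unknown. With the replicate block, 6 Kcn genes were IHC-enriched and 0 OHC-enriched, 1 partner gene was IHC-enriched, the median log2 fold change of the tested Kcn genes was -0.40, and the log2 fold change of Kcnn2 was 0.00577.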

Other observations

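Of the 5 noncoding genes with a Kcn name, Kcnq1ot1, a nuclear antisense RNA of the imprinted Kcnq1 locus named here after its values were seen, was the only one tested. It was 11.5 to 35.01 CPM in IHC libraries (median 25.6) and 4.74 to 246 CPM in OHC libraries (median 47.4), and its log2 fold change of 1.72 ± 0.57 did not pass the test (edgeR adjusted p = 0.0799). Kcnq1 itself had at most 8 counts in any library, and its exons share 834 bases, 16.3% of their length, with those of Kcnq1ot1 on the opposite strand. Kcnmb4os2 had 199 counts in 1 OHC library, replicate 4, and the other 3 had at most 6 in any library.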
